A study of Mus musculus with 3 samples.

Results

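Genes for the enzymes of oxidative phosphorylation were examined in cultures of embryonic mouse forebrain cells. They were picked by gene name: every probe set of the array whose only gene symbol began with Nduf followed by a, b, c, s or v, with Uqcr, with Atp5 or with Cox4 to Cox8, or was Sdha to Sdhd or Cyc1. The names gave 99 probe sets of 90 genes, out of 22180 genes with a probe set of their own. Of the 90, 2 are pseudogenes (Atp5c1-ps and Uqcrh-ps1), which leaves 88 genes: 32 of complex I, 8 assembly factors of complex I (Ndufaf1 to Ndufaf8), 4 of complex II, 8 of complex III, 19 of complex IV and 17 of complex V. Ndufa4 and Ndufa4l2, named for complex I, were counted with complex IV, where the protein is now placed, and so was Cox7a2l, a factor that joins complexes III and IV.

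The study holds 1 group of 3 replicate cultures. Wild-type CD-1 embryos at embryonic day 13 supplied the medial ganglionic eminence (MGE), the ventral forebrain region that produces GABA-releasing interneurons. The cells were plated at 59000 per square centimetre on laminin (2%) and poly-D-lysine (1%) in medium with FGF2 at 40 ng/ml, B27 (2%) and glutamine at 500 µM. Cytosine arabinoside (AraC), a nucleoside analogue that kills dividing cells, was present at 1 µM for 24 h from day 5, was washed out by 3 medium changes spaced 2 h apart, and 2 further days in culture followed. All 3 cultures had this treatment, so no untreated or unpurified group is at hand, and the labels do not say how many litters were pooled. Total RNA (100 ng) from each culture went on 1 one-colour Affymetrix array. Values are log2 signals, and errors are the SD over n = 3 cultures, 1 array each, so the number of arrays limits the precision.

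Markers of the labelled cell type gave signal, beside those of other cells. The 10 neuronal and 10 MGE interneuron markers examined all lay above background, as did 7 of 8 astrocyte, 7 of 7 oligodendrocyte lineage and 8 of 8 cell cycle genes. Of 7 markers of cortical glutamatergic neurons 1 did, of 8 microglial markers 5 and of 6 endothelial markers 5. The highest means in these 3 lists were 7.14, 7.20 and 7.36, beside a background line of 6.26. Of all 20751 genes tested 63.4% lay above that line, so counts in short lists do not alone show which cells were present. Against a line 1 log2 unit higher, all 10 neuronal and all 10 MGE interneuron markers passed. So did 6 astrocyte, 6 oligodendrocyte lineage and 8 cell cycle genes and 0 of the other 3 lists, against 47.6% of all genes. In bulk samples like these, fewer cells of a type cannot be told apart from less RNA per cell.

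Oxidative phosphorylation takes place in the inner membrane of mitochondria. Complexes I and II take electrons from NADH and succinate, complex III passes them to cytochrome c, and complex IV hands them to oxygen. Complexes I, III and IV pump protons, and complex V, the ATP synthase, lets the protons flow back to make ATP. A small set of subunits of complexes I, III, IV and V is encoded in mitochondrial DNA and all others, with all of complex II, in the nucleus. Neurons rely on this route for most of their ATP.

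Nearly all of these genes gave signal above background. Of the 88 genes, 83 (94.3%) lay above the background line, against 63.4% of all 20751 genes tested. The line, 6.26 log2 units, is the 95th percentile of probe sets for odour, pheromone and bitter taste receptors, and a gene counted as above it when limma's moderated test of the 3 cultures gave an adjusted p under 0.05. A stricter test, against a line 1 log2 unit higher, was passed by 74 (84.1%), against 47.6% of all genes. The median level of the 88 was 9.32, and that of all genes tested 7.34. The 5 genes not above the line were Cox7b2, Cox8b, Cox8c and Ndufa4l2, all of them isoforms of restricted tissue range, and Atp5j2, a small subunit of the ATP synthase. Both pseudogenes were also below it, Atp5c1-ps at 4.13, 4.15 and 3.89 in cultures 1, 2 and 3 and Uqcrh-ps1 at 5.23, 4.68 and 5.17. Ndufb1, Ndufb2, Ndufb4, Ndufs6, Uqcr10 and Cox6c, also subunits, had no probe set named for them alone and were not analysed as members here.

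**Figure D1:**
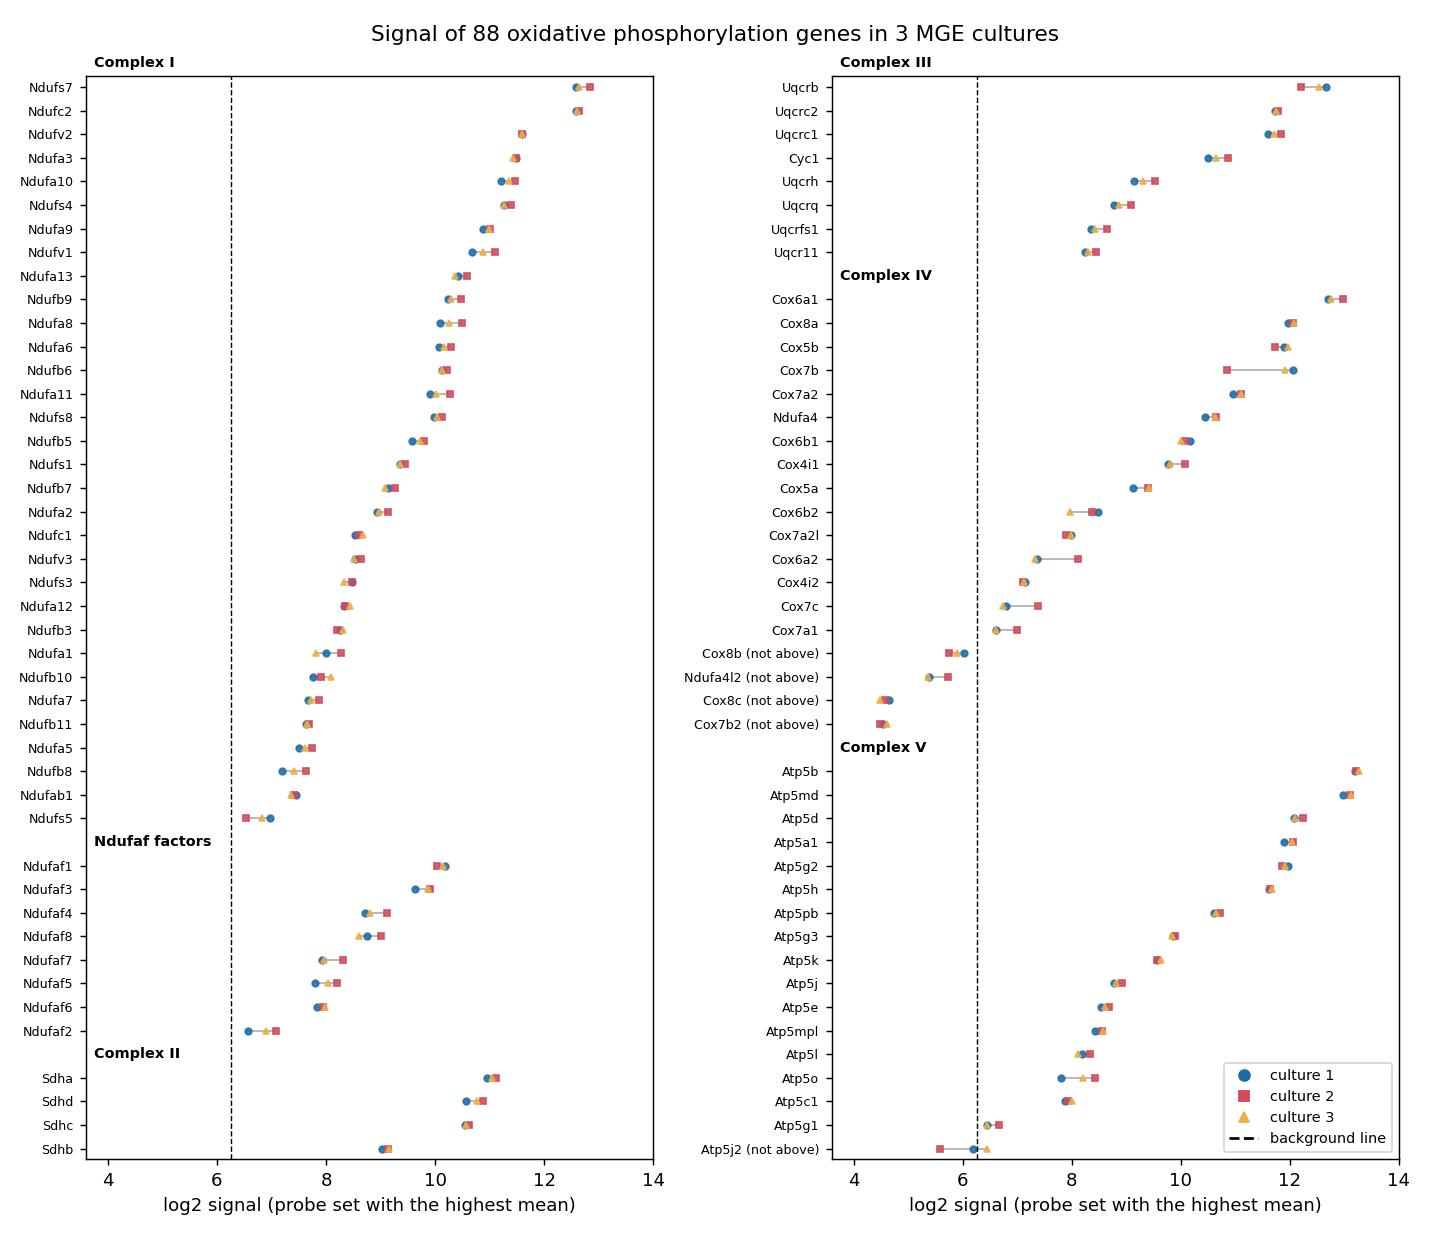
Log2 signal of the 88 genes (horizontal axis) in cultures 1, 2 and 3, by complex, with the probe set of highest mean for each gene. The dashed line marks background at 6.26; 83 genes lie above it, and the 5 marked as not above are 4 isoforms of complex IV and Atp5j2. Signals of different genes are not compared, since probe sets bind with different strength.

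The promoters of the members hold a sequence feature that the choice by name did not use. NRF1 and GABPA are transcription factors known to act on respiratory genes, YY1 also binds many of them, and ESRRA is a nuclear receptor that works with the coactivator PGC-1alpha. RefSeq promoter windows of GRCm38.p6, running from 250 bases before to 50 bases after the start of the gene, were matched by symbol for 72 of the 90 members. The core letters of the NRF1 motif, GCGCA and GCGC with 1 base of any kind between them, stood on either strand in the windows of 17 of the 72 (23.6%), against 1402 of 27025 genes with a window (5.19%) and 1127 of 10295 such genes above the background line (10.9%). The YY1 letters AAGATGGCG were in 7 members (9.72%), against 1.64% of all genes and 3.34% of those above the line. The letters CCGGAAGT, bound by GABPA and other ETS factors, were in 5 (6.94%), against 4.31% and 8.33%. The ESRRA letters TCAAGGTCA were in 2 (2.78%), Atp5g3 and Sdhd, against 0.466% and 0.311%. No match overlapped one of another motif, and 28 of the 72 held at least 1 of the 4. A match describes letters and not binding, which was not measured.

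Stretches of 7 NRF1-bearing promoters are shown, 6 of members that were highest in culture 2 and 1 of Ndufs5, which was lowest there. They run 5′ to 3′ on the strand of the gene and end before its start, and capitals mark the NRF1 letters.
Ndufaf4, chr4:24897955-24897994, + strand: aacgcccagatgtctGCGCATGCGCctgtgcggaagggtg
Ndufa8, chr2:36049344-36049383, - strand: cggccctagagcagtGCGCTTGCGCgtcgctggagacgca
Ndufa11, chr17:56717687-56717726, + strand: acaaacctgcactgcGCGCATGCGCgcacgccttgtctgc
Cox6a1, chr5:115349051-115349135, - strand: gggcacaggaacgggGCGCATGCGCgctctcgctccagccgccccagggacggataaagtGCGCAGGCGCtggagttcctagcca
Sdhd, chr9:50603904-50603943, - strand: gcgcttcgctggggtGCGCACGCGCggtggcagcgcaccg
Sdha, chr13:74350241-74350353, - strand: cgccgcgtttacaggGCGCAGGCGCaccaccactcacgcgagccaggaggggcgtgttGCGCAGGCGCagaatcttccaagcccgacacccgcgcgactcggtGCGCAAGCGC
Ndufs5, chr4:123718260-123718299, - strand: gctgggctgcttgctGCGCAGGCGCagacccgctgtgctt
All are promoter regions of RefSeq in build GRCm38.p6. Sdha carried the letters 3 times and Cox6a1 2 times in the stretch shown. Atp5k, highest in culture 3, and Atp5g2, lowest in culture 2, also had such stretches, which are not shown. The 7 were picked with these values known, so they show no link between the letters and the order of cultures. Of members above the line, 12 of 17 with the letters and 34 of 52 without them were highest in culture 2. By complex, the letters were in 6 of 15 complex V windows, 5 of 29 of complex I, 2 of 3 of complex II, 1 of 4 of complex III, 1 of 14 of complex IV and 2 of 7 of the assembly factors.

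**Figure D2:**
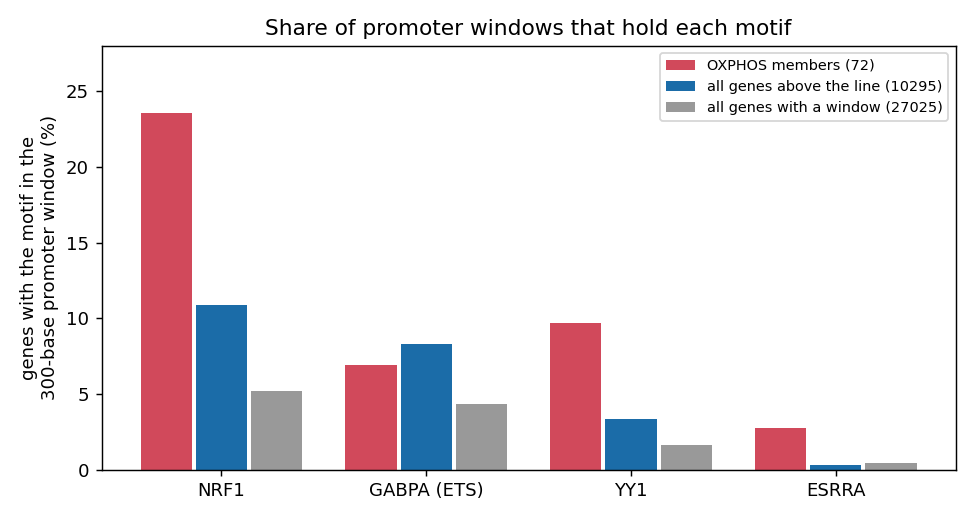
Share of genes (vertical axis, %) whose 300-base promoter window holds each motif, for 72 members, 10295 genes above the background line and all 27025 genes with a window. The NRF1 letters were in 23.6% of members, 10.9% of genes above the line and 5.19% of all genes, while the GABPA letters were in 6.94%, 8.33% and 4.31%.

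All 32 complex I genes measured were above the line, and 29 (90.6%) passed the stricter test, against 63.4% and 47.6% of all genes tested. The core subunits carry the flavin and the chain of iron-sulfur clusters. Ndufv1, which binds the flavin that takes electrons from NADH, was at 10.68, 11.09 and 10.87 in cultures 1, 2 and 3. Ndufv2, its iron-sulfur partner, was at 11.59, 11.59 and 11.60, an SD of 0.01, the smallest among the 83 genes above the line. Ndufs7 and Ndufs8, which hold the clusters closest to ubiquinone, had means of 12.69 ± 0.13 and 10.04 ± 0.07, and Ndufs1 and Ndufs3 of 9.39 ± 0.05 and 8.43 ± 0.09. Core subunits were highest in culture 2 in 5 of 6 cases (83.3%), against 52.1% of all genes above the line. Ndufv2 was highest in culture 3, though by as little as 0.01.

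The 26 accessory subunits of complex I ranged from 6.78 to 12.61. Ndufs5 was closest to background, at 6.98, 6.54 and 6.83, lowest in culture 2, and its SD of 0.22 was among the 10 largest. Ndufa1, an X-linked subunit needed early in assembly, was at 8.0, 8.27 and 7.82 (SD 0.23). At the other end Ndufc2, a subunit of the membrane arm, was at 12.58, 12.63 and 12.60 (SD 0.02), 1 of the 5 least variable genes above the line. Ndufs4, an accessory subunit whose loss causes Leigh-like disease in mice, was at 11.27, 11.39 and 11.26. In all, 19 of the 26 (73.1%) were highest in culture 2, against 52.1% of all genes above the line.

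The assembly factors Ndufaf1 to Ndufaf8, which help build complex I and leave it afterwards, were all above the line, against 63.4% of all genes. The stricter test was passed by 7 (87.5%), against 47.6%. Ndufaf2, at 6.56, 7.09 and 6.90, had an adjusted p of 0.00603 over the 3 cultures, of 0.0642 when culture 2 was left out and of 0.0507 when culture 3 was, so either loss ended its call. Culture 2 was highest for 6 of the 8 (75.0%), against 52.1% of all genes above the line. The exceptions were Ndufaf1 (10.18, 10.03 and 10.15) and Ndufaf6 (7.83, 7.94 and 7.99). Their median SD, 0.20, compares with 0.10 for all 83 genes. Ndufaf4 (8.71, 9.12 and 8.81), Ndufaf7 (7.92, 8.31 and 7.97) and Ndufaf8 (8.75, 9.0 and 8.61) stood higher in culture 2 than in either other culture, whereas Ndufaf3 (9.64, 9.91 and 9.87) had culture 1 alone at the low end.

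Complex II, succinate dehydrogenase, had all 4 genes past the stricter test, against 47.6% of all genes, and the same culture lowest in each. Sdha, the flavoprotein that oxidizes succinate, was at 10.96, 11.11 and 11.05. Sdhb, the iron-sulfur subunit, was at 9.03, 9.14 and 9.16. The membrane anchors Sdhc and Sdhd were at 10.54, 10.62 and 10.56 and at 10.57, 10.88 and 10.77. Culture 1 was thus lowest for 4 of 4, where 43.7% of all genes above the line were lowest.

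In complex III all 8 genes measured were more than 1 log2 unit above the line, against 47.6% of all genes. Of the 8, 7 shared an order of the cultures. Cyc1, the cytochrome that gives electrons to cytochrome c, was at 10.50, 10.87 and 10.64. Uqcrfs1, the Rieske iron-sulfur protein, was at 8.36, 8.64 and 8.42, and the hinge protein Uqcrh at 9.15, 9.52 and 9.31. In these 3 culture 2 was highest and culture 1 lowest. The same held for the core proteins Uqcrc1 (11.70 ± 0.12) and Uqcrc2 (11.76 ± 0.03) and for Uqcrq (8.91 ± 0.16) and Uqcr11 (8.33 ± 0.10). Uqcrb, which sits near the ubiquinone site, ran the other way, at 12.67, 12.20 and 12.53. Culture 2 was thus highest for 7 of the 8 (87.5%), against 52.1% of all genes above the line.

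Complex IV, cytochrome c oxidase, separated into subunits used in most tissues and isoforms of restricted range. All 10 general subunits measured were above the line, and 9 passed the stricter test. Cox4i1, the subunit through which ATP inhibits the enzyme, was at 9.76, 10.07 and 9.80, and Cox5a, its neighbour in the complex, at 9.12, 9.40 and 9.41. Cox6a1 had a mean of 12.81 ± 0.15, Cox8a of 12.03 ± 0.06, Cox5b of 11.86 ± 0.13, Cox7a2 of 11.06 ± 0.08, Ndufa4 of 10.57 ± 0.11 and Cox6b1, which bridges the dimer, of 10.08 ± 0.08. These 8 differed by 0.31 log2 units or less between cultures. Cox7c was nearest to background and high in culture 2 alone, at 6.80, 7.39 and 6.74 (adjusted p = 0.00734). It was not above the line set at the 99th percentile (adjusted p = 1).

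Cox7b varied most of all 83 genes, and its probe sets disagreed. The brighter was at 12.06, 10.84 and 11.91, an SD of 0.67 with culture 2 low. The dimmer was at 7.28, 7.53 and 7.92, with culture 1 low. Nuclear genes of these complexes often have retrotransposed copies, and which copy a probe set binds was not tested. For Cox5b too the brighter probe set was lowest in culture 2 (11.90, 11.72 and 11.97) and the dimmer lowest in culture 1 (7.05, 7.34 and 7.42).

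Among 8 isoforms of complex IV subunits 4 were above the line and 1 passed the stricter test. That 1 was Cox6b2, known from testis, at 8.48, 8.38 and 7.96. Cox6a2, the heart and skeletal muscle form of subunit 6a that is also known from parvalbumin interneurons, was at 7.36, 8.12 and 7.33 (adjusted p = 0.00156). Culture 2 alone was high, and the SD of Cox6a2, 0.45, was the second largest. Cox7a1, the muscle form of subunit 7a, was at 6.61, 7.0 and 6.61 (adjusted p = 0.00739), again with culture 2 alone high. Cox4i2, a form of lung and of oxygen-sensing cells, was at 7.15, 7.10 and 7.12 (SD 0.03, adjusted p = 6.03e-05), nearly equal in the 3 cultures. With the line at the 99th percentile Cox4i2 (adjusted p = 0.63), Cox6a2 (0.0528) and Cox7a1 (1) were not above it. The count was then 1 of 8, against 49.9% of all genes.

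The isoforms below the line had no culture above it. Cox8b, a muscle form, was at 6.02, 5.75 and 5.90, and Ndufa4l2, a gene induced by low oxygen, at 5.38, 5.73 and 5.36. The testis forms Cox7b2 and Cox8c had means of 4.55 ± 0.07 and 4.57 ± 0.08. The median of the 1440 receptor probe sets was 4.37. Cox7a2l, the factor that joins complexes III and IV, was above the line at 7.98, 7.90 and 7.98.

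Complex V had 16 of 17 genes (94.1%) above the line and 15 (88.2%) past the stricter test, against 63.4% and 47.6% of all genes. The F1 head, which makes ATP, had all 5 subunits above the line. Atp5a1 and Atp5b, the alpha and beta subunits of the catalytic ring, were at 11.90, 12.06 and 12.04 and at 13.20, 13.21 and 13.26. The central stalk genes Atp5c1, Atp5d and Atp5e had means of 7.93 ± 0.07, 12.14 ± 0.09 and 8.61 ± 0.08. Culture 1 was lowest for all 5 F1 genes and all 4 genes of the peripheral stalk, where 43.7% of all genes above the line were lowest. Within that stalk Atp5o, the oligomycin sensitivity conferring protein that ties the stalk to the head, spread most, at 7.81, 8.42 and 8.21 (SD 0.31), while Atp5h, Atp5pb and Atp5j had SDs of 0.03 to 0.08.

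The 3 genes of the c ring, the rotor that protons turn, encode the same mature protein behind different import sequences. Atp5g2 was at 11.96, 11.85 and 11.91 and Atp5g3 at 9.85, 9.89 and 9.83. Atp5g1 lay close to the line at 6.44, 6.66 and 6.44 (adjusted p = 0.0176), and it did not pass without culture 2 (0.0846) or without culture 3 (0.0548). Among other subunits in the membrane, Atp5md, a small subunit of the dimer, had a mean of 13.07 ± 0.08 and Atp5k, subunit e, of 9.59 ± 0.04. Atp5j2, subunit f, was at 6.18, 5.59 and 6.45, so only culture 3 exceeded 6.26.

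The nuclear genes were highest in culture 2 and lowest in culture 1 more often than other genes above the line. Of the 83, 56 (67.5%) were highest in culture 2, against 52.1% of 13155 genes, and 59 (71.1%) were lowest in culture 1, against 43.7%. In cultures 1 and 3, 11 and 16 members were highest, which is 13.3% and 19.3%, against 32.4% and 15.5%. In cultures 2 and 3, 9 and 15 were lowest, which is 10.8% and 18.1%, against 24.9% and 31.4%. A tie counted for the lower-numbered culture: Cox7a2l was equally high and Atp5g1 equally low in cultures 1 and 3, and without ties 10 members were highest and 58 (69.9%) lowest in culture 1, against 31.1% and 42.4% of all genes. The median deviation from the gene's own mean was -0.08 in culture 1, 0.08 in culture 2 and -0.01 in culture 3, against -0.02, 0.04 and -0.02 over all genes above the line. With 1 array per culture no test between cultures exists. The median SD of a member was 0.10, and that of all genes above the line 0.12. Within each band of level the share highest in culture 2 was above that of all genes. Of members between 8 and 10 log2 units 22 of 30 (73.3%) were highest in culture 2, against 59.0% of all genes there, and between 10 and 12 it was 20 of 28 (71.4%), against 50.4%. Below 8 and above 12 it was 9 of 16 (56.2%) and 5 of 9 (55.6%), against 44.0% and 37.7%. Without culture 1, culture 2 was the higher in 60 of the 83 (72.3%), against 66.1% of all genes above the line, with median deviations of 0.04 and 0.03. Without culture 3 it was the higher in 70 (84.3%), against 60.2%. Without culture 2, culture 3 was the higher in 60 (72.3%), against 49.8%, with median deviations of 0.03 and 0.0. After median centring 7, 67 and 9 members were highest in cultures 1, 2 and 3 (8.43%, 80.7% and 10.8%). The shares of all genes were then 24.6%, 62.9% and 12.5%, so in culture 3 the members were near the share of all genes.

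On these 3 arrays the shift differed in size between complexes, some of them with as few as 4 genes. The median deviation in culture 2 was 0.20 for the assembly factors, 0.14 for complex III and 0.08 for complex I. It was 0.07 for complex IV, 0.06 for complex II and 0.05 for complex V. Over all genes above the line it was 0.04. Complex V had 9 of 16 genes (56.2%) and complex IV 7 of 15 (46.7%) highest in culture 2. Both shares were near the 52.1% of all genes above the line. Complex V had 6 highest in culture 3 (37.5%, against 15.5% of all genes) and complex IV 5 in culture 1 (33.3%, against 32.4%). Among members above the line, those with the NRF1 letters had a median deviation of 0.12 in culture 2 (17 genes, 12 highest there), and those with a window but without the letters 0.08 (52 genes, 34 highest there).

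The genes that mitochondrial DNA encodes showed the opposite order of cultures. They are no members by name but code for the remaining subunits of the same complexes. All 10 measured were above the line, all 10 were highest in culture 1 (32.4% of all genes above the line) and all 10 were lowest in culture 2 (24.9%). COX1, the catalytic subunit of complex IV, was at 13.60, 13.11 and 13.47, CYTB of complex III at 13.49, 13.10 and 13.38, and ND2 of complex I, which spread most, at 13.23, 12.56 and 12.99. ND1, ND3, ND4, ND4L, ND5 and COX3 lay between 13.22 and 13.75 in culture 1 and between 12.89 and 13.46 in culture 2. Median deviations were 0.17, -0.21 and 0.04 in cultures 1, 2 and 3, against -0.08, 0.08 and -0.01 for the 83 nuclear genes. The signals lay near the top of the scale: 9 of the 10 were among the 86 brightest of 41345 probe sets, and the highest value on any array was 13.92. ND6, the only protein gene on the other strand of mitochondrial DNA, was at 6.88, 6.80 and 6.80. After quantile normalization 9 of 10 were highest in culture 1 and 9 lowest in culture 2, against 34.4% and 31.0% of all genes. After median centring 10 and 9 were, against 24.6% and 17.4%. COX2, ATP6 and ATP8 were not analysed here.

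**Figure D3:**
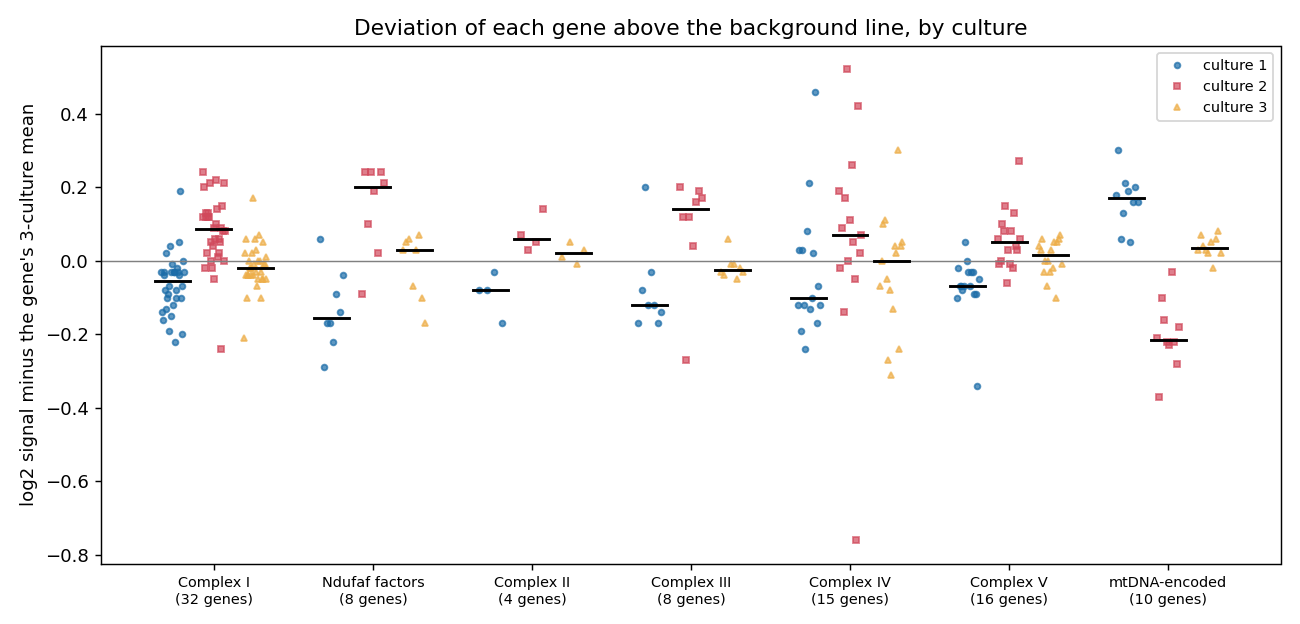
Log2 signal of each gene above the background line minus its own 3-culture mean (vertical axis), by complex and culture, with black bars at the medians. In culture 2 the medians of the nuclear sets lie between 0.05 and 0.20 and that of the 10 mitochondrially encoded genes at -0.21; the lowest point, in complex IV, is Cox7b at -0.76.

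Markers of neurons and of glia also differed between the cultures. Neuronal markers had median deviations of -0.19, 0.13 and 0.02 in cultures 1, 2 and 3 (10 of 10 above the line), with summed linear signals of 33769, 40554 and 39301. MGE interneuron markers had -0.21, 0.16 and 0.08 (10 of 10), with sums of 17589, 22811 and 21721. All 10 were lowest in culture 1, against 43.7% of all genes above the line. Astrocyte markers ran the other way, at 0.43, -0.46 and 0.03 (7 of 8, S100b not above the line), with sums of 12551, 7143 and 9399. Oligodendrocyte lineage genes had 0.10, -0.05 and -0.03 (sums of 10559, 9265 and 9379) and cell cycle genes 0.17, -0.06 and -0.08 (8405, 7010 and 7069). Microglial markers above the line had 0.05, -0.20 and 0.13 (5 of 8, sums of 789, 700 and 805) and endothelial ones 0.06, 0.11 and -0.10 (5 of 6, sums of 652, 647 and 592). Cortical glutamatergic markers summed to 499, 732 and 591, with Slc17a7 at 6.11, 7.22 and 6.63, Slc17a6 at 6.11, 7.01 and 6.07 and Neurod6 at 5.63, 6.28 and 5.60, none of these 3 above the line, and Neurod2, the 1 of 7 that was, at 6.96, 7.16 and 7.28. The sums were 129276, 136419 and 133778 for the 88 nuclear genes and 102711, 78780 and 93894 for the mitochondrially encoded ones, beside 8869767, 9180955 and 8902135 for all genes tested. By complex the sums of complexes III (16071, 15777 and 16031) and IV (25934, 25643 and 26632), where Uqcrb and Cox7b are among the bright genes low in culture 2, were lowest in culture 2. The part of these cell type differences in the order of the respiratory genes was not tested.

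**Figure D4:**
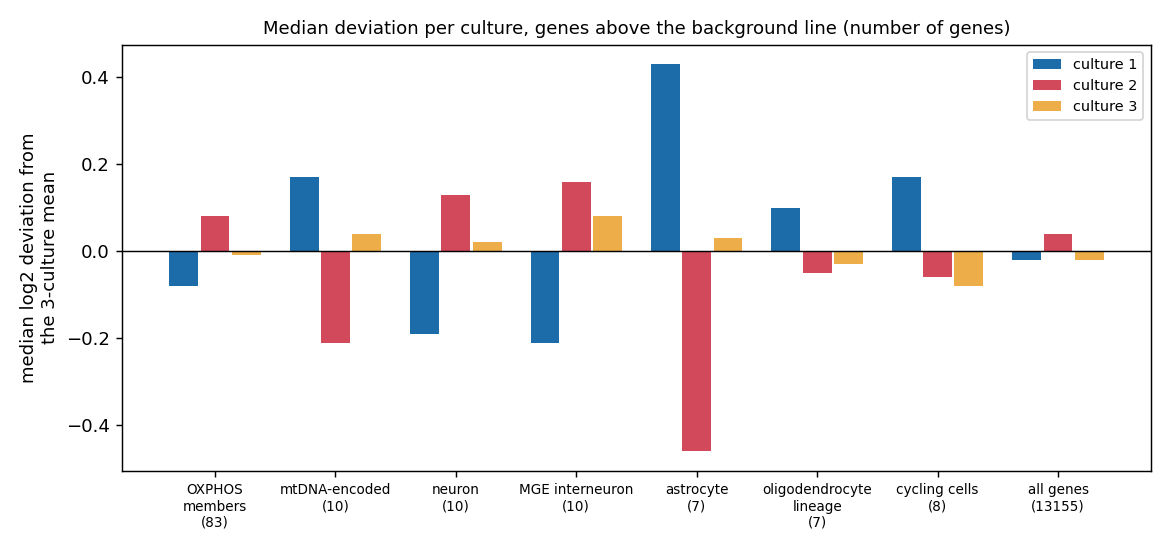
Median log2 deviation from the 3-culture mean (vertical axis) in each culture, for genes above the background line, with the number of genes in brackets. Nuclear oxidative phosphorylation genes stood at -0.08, 0.08 and -0.01 in cultures 1, 2 and 3. All genes above the line (-0.02, 0.04 and -0.02) had the same signs in every culture, and neuronal markers in cultures 1 and 2 only. Mitochondrially encoded genes (0.17, -0.21 and 0.04) had the signs of astrocyte markers and, among lists not drawn, of microglial markers (0.05, -0.20 and 0.13). Shared signs do not single out a cell type, whose part was not tested.

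Assembly genes were above the line throughout, and carriers and uncouplers in 6 of 10 cases, beside 63.4% of all genes tested. Of assembly genes not among the members, 7 of 7 measured for complex I, 10 of 10 for complexes II and III, 17 of 17 for complex IV and 4 of 4 that assemble or control complex V passed. Culture 2 was highest for 6, 7, 14 and 3 of these (85.7%, 70.0%, 82.4% and 75.0%), against 52.1% of all genes above the line. Among carriers and uncouplers 6 of 10 (60.0%) passed, with Cycs, cytochrome c, at 11.71, 11.55 and 11.63, and the ADP/ATP carriers Slc25a4 and Slc25a5 at 10.86 ± 0.10 and 12.48 ± 0.02. The 4 that did not were the germ cell forms Cyct (5.55 ± 0.11) and Slc25a31 (5.60 ± 0.22) and the uncoupling proteins Ucp1 (6.25 ± 0.27), of brown fat, and Ucp3 (5.33 ± 0.09), of muscle. Ucp2 was not analysed here.

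Regulators and genes for mitochondrial DNA upkeep and expression passed in 17 of 18 cases (94.4%, beside 63.4% of all genes tested). Mterf1a (6.06 ± 0.13) was the exception. Ppargc1a, which encodes the coactivator PGC-1alpha, was at 10.27, 10.55 and 10.43, and its partner Esrra at 8.13, 8.17 and 8.16. Nrf1 was at 7.68, 7.61 and 7.54 and Gabpa at 9.19, 9.13 and 8.94, neither highest in culture 2. Tfam, which packs and transcribes mitochondrial DNA, was at 8.28, 8.31 and 8.25, and Polrmt, its RNA polymerase, at 8.53, 8.69 and 8.62. Of the 17, 8 were highest in culture 1 and 8 in culture 2 (47.1% each), against 32.4% and 52.1% of all genes above the line.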

How the data were processed

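Gene expression was measured on 1 array for each of 3 MGE cultures. The authors deposited log2 values per probe set, made with oligo and RMA per the submitters' processing notes; versions and settings were not given in the sources used here, nor was a filter. Array medians were 6.57, 6.52 and 6.56, and arrays give no read depth. Probe sets were named through the platform table, and the 1814 with several symbols were left out (23521 of 41345 have 1). limma 3.58.1 in R 4.3.3 compared each probe set's mean with a background line, 1-sided, Benjamini-Hochberg adjusted over 22081 probe sets, with an adjusted p under 0.05 as the threshold; the call was tested on simulated data. A gene took its probe set of highest mean and counted as above the line if any of its probe sets did; 9 members had more than 1. The replicates are labelled biological, with nothing on litters.

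The members and the gene lists were chosen with earlier results of these data known. Genes named are the members of complexes II and III, the complex I core, the complex IV lists, the F1 and c ring lists, members not above the line, the 10 most and 5 least variable, those with several probe sets or a call that 1 left-out culture changed, and set regulators and carriers; other genes, and the promoter stretches, were chosen after their values were seen. Promoter sequences are from RefSeq (GRCm38.p6). A planned comparison of isoform proteins was not made.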

Additional observations from a re-analysis of the deposited data

How the results depend on the processing

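The count of 83 genes above the line was 76 at the 99th percentile (49.9% of all genes), 83 at the 90th (72.5%) and 74 with skin, defensin and seminal gene families as background (47.5%). It was 81 without culture 2 (61.5%) and without culture 3 (60.9%). It stayed at 83 with no test, an intensity trend, quantile normalization or median centring. Averaged probe sets, a filter on dim probe sets and leaving out culture 1 also gave 83. In these settings 62.5% to 65.8% of all genes passed. The count past the test against a line 1 log2 unit higher ranged from 56 to 78. The share of all genes was 31.6% where it was 56 (skin, defensin and seminal families) and 54.1% where it was 78 (90th percentile). Counts by complex and role and in the related lists kept within 1.5 times their value under these settings, except that of complex IV isoforms, 4 with the line as used and 1 under each of those higher lines, the 99th percentile's and that of skin, defensin and seminal genes, which stand at 7.10 and 7.29. In culture 2 the members' median deviation was 0.06 after quantile normalization, against 0.02 for all genes above the line. After median centring it was 0.12, against 0.08. The checks of mitochondrially encoded and marker genes under both scalings, and of all genes' order of cultures, were chosen after seeing the data. No paired analysis was possible because there is 1 group. With 3 arrays and 1 per culture, differences between cultures have no replicate check.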

Other observations

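Some subunits were named only on probe sets shared with another gene. In all, 10 shared probe sets name a subunit, and among these Ndufs1, Ndufs5 and Uqcrb also had a set of their own. All 10 were over the background line in every culture, against 64.5% of all genes tested. The brighter of those shared by Cox6c, a subunit of complex IV, and Gm6265 was at 12.88, 12.96 and 12.86 in cultures 1, 2 and 3, and the brighter of those shared by Ndufs6, of complex I, and Ndufs6b at 10.49, 10.63 and 10.75. The one for Ndufb4, Ndufb4b and Ndufb4c was at 8.50, 8.60 and 8.55, the one for Ndufb2 and Adck2 at 7.71, 7.92 and 7.74, and the one for Uqcr10, of complex III, and Gm6293 at 7.43, 7.13 and 7.27. Which of the named genes gave the signal cannot be told apart.

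For Uqcrb and Ndufs5, whose own probe sets were lowest in culture 2, a probe set shared with another gene was highest there. That of Uqcrb and Gm10767 was at 7.11, 7.49 and 7.38, against 12.67, 12.20 and 12.53 for the set of Uqcrb alone. That of Ndufs5 and Ndufs5-ps was at 7.14, 7.36 and 7.33, against 6.98, 6.54 and 6.83 for Ndufs5 alone. Among the 9 members with 2 probe sets of their own, those of Atp5d, Atp5e, Ndufa8 and Ndufa11 were highest in culture 2 on both sets, those of Atp5g2 highest in culture 1 on both sets. Ndufa12 was at 8.33, 8.35 and 8.44 on the brighter set and at 6.70, 6.73 and 6.69 on the dimmer.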
